A study of Mus musculus with 4 samples.

Results

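The miR-30 family was followed in small RNA libraries of unstimulated mouse macrophages grown from bone marrow (BMDMs). Its 5 members are the 5p strands mmu-miR-30a-5p, mmu-miR-30b-5p, mmu-miR-30c-5p, mmu-miR-30d-5p and mmu-miR-30e-5p. They were taken by name from the 1979 mature miRNAs listed, and all 5 were among the 251 miRNAs with a mean of at least 10 RPM (reads per 1000000 counts) over the libraries, which are called expressed here. Where a miRNA was listed more than once, the line with the highest summed count was used.

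There were 4 libraries: WT A and WT B from wild-type cultures, 1 library from mir-146a knockout cells (KO), and 1 from cells homozygous for the 3′F allele. In KO the pre-miRNA sequence of mir-146a is removed, and in 3′F the 3′ part of the mature miR-146a strand is exchanged with the opposite strand of the hairpin. All mice were 6 to 7 months old and of a 129/B6 mix, and 3 mice of each genotype are named without a statement on pooling. Marrow was plated at 85000 cells per cm2, grown in M-CSF (10 ng/ml) for 8 to 9 days, and held for 16 h in medium without LPS. The alleles were kept as separate breeding lines, and the study's methods state that WT controls were drawn in equal parts from both. Which line gave the animals of each WT library is not given in the sources used here. The study asked whether pairing by the 3′ part of miR-146a is needed for its function, so the miR-30 family serves here as a set of miRNAs that neither allele alters in sequence.

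A miRNA hairpin yields a 5p and a 3p strand. One of them, the guide, is usually kept by Argonaute, while the other, the passenger, is mostly degraded. Guides pair with messenger RNAs largely through the seed, bases 2 to 8 counted from the 5′ end, so miRNAs with 1 seed form a family with overlapping targets. The miR-30 family is expressed in many tissues and comes from 6 hairpins in 3 genomic clusters, and its 5p strands are the usual guides.

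The mature strands show what the members share and where they part. RefSeq (GRCm38.p6) gave a sequence for 3 of the 5 members and for 4 of the 6 3p strands, printed 5′ to 3′ with the seed in capitals. The 5p strands, shown for the shared seed, were:
miR-30a-5p: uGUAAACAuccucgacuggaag
miR-30e-5p: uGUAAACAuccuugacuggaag
miR-30c-5p: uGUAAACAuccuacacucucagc

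The 3p strands, shown because they tell apart hairpins whose 5p strands are alike, were:
miR-30a-3p: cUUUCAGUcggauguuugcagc
miR-30e-3p: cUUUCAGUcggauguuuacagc
miR-30c-1-3p: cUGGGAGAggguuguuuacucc
miR-30c-2-3p: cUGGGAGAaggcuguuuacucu

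Positions are counted from 1 at the 5′ end, with the base of the first-named strand written first. miR-30a-5p and miR-30e-5p shared their first 12 bases and differed by 1 substitution, C13U. miR-30c-5p differed from miR-30a-5p at 5 of the 22 positions compared, C13A, G14C, G18C, G19U and A20C, all outside the seed. The 3p strands of mir-30a and mir-30e differed only by G18A and shared the seed UUUCAGU. The 3p strands of mir-30c-1 and mir-30c-2 differed by G9A, U12C and C22U and shared the seed UGGGAGA. Among the 1679 listed miRNAs that matched a RefSeq sequence, 1 other carried the seed GUAAACA. This was miR-384-5p, which had 0 counts in each of the 4 libraries, where a floor of 3 counts corresponds to 0.157 to 0.263 RPM.

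The hairpins were placed on GRCm38 with the GENCODE vM21 annotation. Mir30a lies at chr1:23272269-23272339 on the plus strand and overlaps no other annotated gene. Mir30c-2 lies 19361 bp further on, at chr1:23291701-23291784, and overlaps an exon of the lincRNA Gm27028. Mir30b, at chr15:68337415-68337510, and Mir30d, at chr15:68341208-68341289, are on the minus strand with 3697 bp between them. Mir30b overlaps an exon of the noncoding gene Gm26621 and Mir30d an exon of the lincRNA Gm20732. Mir30c-1, at chr4:120769534-120769622, and Mir30e, at chr4:120772606-120772697, are both in intron 5 of the transcript Nfyc-201, on the strand of Nfyc, which encodes a subunit of the transcription factor NF-Y. Because miR-30c-5p comes from 2 hairpins with the same mature sequence and is listed on 2 lines with equal values, its level cannot be divided between the mir-30a/mir-30c-2 and mir-30c-1/mir-30e clusters.

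Libraries held 11410940 to 19087640 counts, and miR-21a-5p alone took 33.4% to 37.9% of each. The labels were checked with miR-146a-5p, at 6253 RPM in WT A, 5485 RPM in WT B, 13.4 RPM in KO and 6.64 RPM in 3′F. This separates WT from both mutants but not the mutants from each other. The listed mmu-miR-146swap-5p, by its name the exchanged strand, had 171 counts (10.56 RPM) in 3′F and 0 counts in each of the other 3 libraries. In the study's quantitative PCR, the 3′F miRNA was at a level similar to WT in most tissues and cells examined. The study rates that measure as more accurate for this strand than the reads. Of the marker lists, all 6 macrophage and blood cell miRNAs were expressed and summed to 336758 to 382738 RPM, nearly all of it miR-21a-5p. The 5 others summed to 3711 RPM in WT A, 2893 RPM in WT B, 3106 RPM in KO and 2911 RPM in 3′F. Among them miR-142a-3p was at 1721 RPM in WT A and at 1071 to 1121 RPM in the other libraries. The lymphocyte marker miR-150-5p stayed between 1.54 and 2.93 RPM. The 5 stromal and endothelial markers summed to 15.9 to 19.1 RPM, with miR-145a-5p at 0 counts in KO and 3′F, and 1 of the 5 was expressed. The 4 erythroid markers, 3 of them expressed, summed to 169.7 RPM in WT A and 159 RPM in WT B but to 70.3 RPM in KO and 80.3 RPM in 3′F. The 5 epithelial markers (3 expressed) summed to 599, 814, 428 and 590.2 RPM in WT A, WT B, KO and 3′F. Most of each sum was miR-200b-3p, at 512, 707, 358 and 510.1 RPM in the same order. miR-141-3p went from 0.44 RPM in WT A to 1.08 RPM in 3′F, and miR-205-5p had 0 counts in WT B and KO. The part of these differences in the miR-30 values below was not tested.

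KO and 3′F have 1 library each, so no difference from WT has a replicate check and no p-value is given. Mutant values are set against both WT libraries, and ratios are differences of log2(RPM + 1) from the average of both WT libraries. Intervals are 95% Wilson intervals and cover counting error only, since reads are not independent molecules. Ligation efficiency differs between sequences, so the order of levels between miRNAs holds for reads and may differ from the order of molecules in the cell.

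mmu-miR-30d-5p made up most of the family. Its level was 30096 RPM in WT A, 32501 RPM in WT B, 30027 RPM in KO and 32337 RPM in 3′F, and its WT mean was 31299 ± 1701 RPM (SD, n = 2 cultures). It ranked 6, 7, 6 and 6 among all listed miRNAs in these libraries and alone took 3.0% to 3.25% of all counts. Within the family it held 89.3% of the counts in WT A, 89.4% in WT B, then 88.7% in KO and 90.7% in 3′F. By mean WT level it stood at rank 6, between let-7g-5p at 32699.5 RPM and miR-221-3p at 30497 RPM. miR-221-3p was below miR-30d-5p in WT A (27407 RPM) and above it in WT B (33586 RPM). let-7g-5p was above miR-30d-5p in every library, at 32043 RPM in WT A, 33357 RPM in WT B, 40718 RPM in KO and 35771 RPM in 3′F. Its WT A level was still lower than that of miR-30d-5p in WT B.

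The other members stood more than an order of magnitude lower. mmu-miR-30c-5p was at 1395 RPM in WT A, 1604 RPM in WT B, 1688 RPM in KO and 1417 RPM in 3′F. mmu-miR-30e-5p was at 1031, 1101, 873 and 778 RPM in the same order of libraries. Both were above the remaining pair in all 4 libraries, and miR-30c-5p was above miR-30e-5p in each.

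mmu-miR-30a-5p was at 571 RPM in WT A, 660.1 RPM in WT B, 776 RPM in KO and 573 RPM in 3′F. mmu-miR-30b-5p was at 607, 502, 499 and 562 RPM in the same order of libraries. Their WT means, 616 ± 62.7 and 554 ± 74.3 RPM (SD, n = 2 cultures), overlapped within their spread. miR-30b-5p was the higher of the pair in WT A and the lower in the other 3 libraries.

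**Figure D1:**
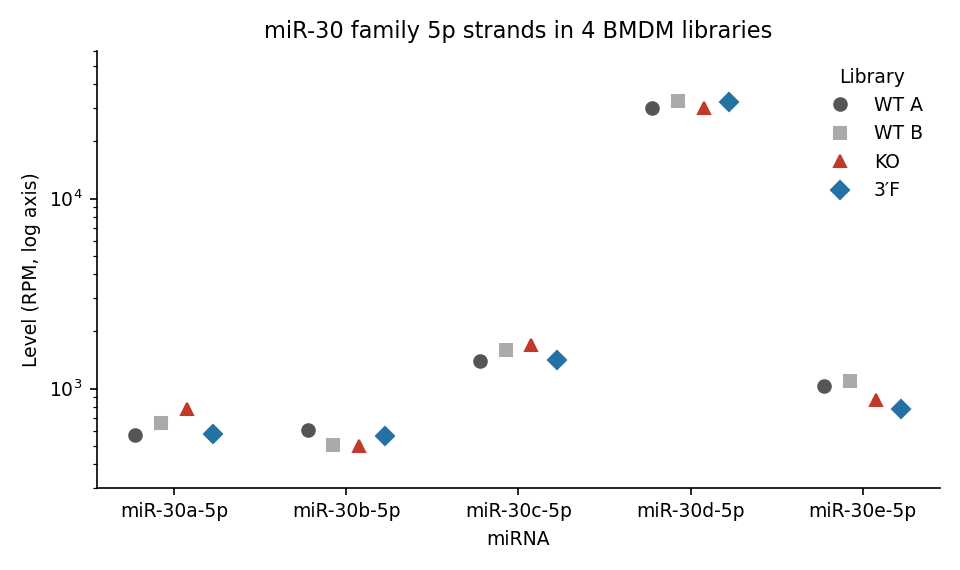
Level of the 5 miR-30 members in RPM on a log axis, with 1 point per library (WT A, WT B, KO and 3′F). miR-30c-5p is shown by 1 of its 2 equal lines. miR-30d-5p sits at 30027 to 32501 RPM, and the other members lie between 499 and 1688 RPM.

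The family as a whole was at nearly 1 level in the 4 libraries. The 5 members summed to 33701 RPM in WT A, 36368 RPM in WT B, 33862 RPM in KO and 35666 RPM in 3′F, or 3.37% to 3.64% of all counts. These sums take 1 of the 2 equal miR-30c-5p lines, whereas the library totals hold both. Both mutants lay between the WT libraries, with log2 ratios of -0.05 for KO and 0.03 for 3′F, while WT B exceeded WT A by 0.11. Since miR-30d-5p dominates this sum, the 4 other members were also added without it. They summed to 3605 RPM in WT A, 3867 RPM in WT B, 3836 RPM in KO and 3329 RPM in 3′F. On these sums KO lay between the WT libraries and 3′F below both, at a log2 ratio of -0.17. The place of KO rests on the line choice. With the second miR-30c-5p line added, KO would lie above both WT libraries and 3′F still below both.

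None of the 5 members was 2-fold or more from both WT libraries, on the RPM + 1 scale, in either mutant. Over all 251 expressed miRNAs, 1.99% were at least 2-fold above and 1.59% at least 2-fold below both WT libraries in KO. In 3′F these shares were 0% and 0.797%. The median log2 ratio of the members was -0.06 in KO and -0.08 in 3′F, beside medians of 0.01 and -0.08 for all expressed miRNAs. Between the WT cultures themselves the members differed by log2 values of -0.27 to 0.21, with 4 of 5 higher in WT B.

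At smaller sizes the members did not move as a block in KO. miR-30a-5p and miR-30c-5p were above both WT libraries, as were 37.8% of all expressed miRNAs, and miR-30b-5p, miR-30d-5p and miR-30e-5p were below both, as were 39.4%. All 5 were thus outside the WT range, among expressed miRNAs of which most were too. For miR-30b-5p (499 RPM in KO, 502 RPM in WT B) and miR-30d-5p (30027 RPM in KO, 30096 RPM in WT A) the distance to the nearer WT library was smaller than the counting intervals, and under other library scalings each of them lay between the WT libraries in at least 1 case.

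miR-30a-5p had the highest KO ratio of the members, 0.34 on the log2 scale, against 0.21 for WT B over WT A. Its KO level of 776 RPM (interval 764 to 789) was 1.36-fold the WT A level and 1.18-fold the WT B level. By ratio it ranked 39 of 251 in KO. miR-30c-5p followed at 0.17, which was smaller than the 0.20 between its WT libraries. miR-30e-5p had the lowest ratio, -0.29, against 0.09 for WT B over WT A. At 873 RPM (interval 860 to 887), its KO level was 0.847-fold the WT A level and 0.793-fold the WT B level.

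In 3′F, 1 of the 5 members was outside the WT range, and 2 to 4 under 3 other library scalings. miR-30e-5p was below both WT libraries, as were 44.2% of all expressed miRNAs, and 0 of 5 members were above both, where the share of all expressed miRNAs was 22.7%. With library scaling by TMM these background shares were 30.7% below and 31.5% above. The miR-30e-5p level in 3′F, 778 RPM (interval 764 to 791), was 0.754-fold the WT A level and 0.707-fold the WT B level, and the log2 ratio was -0.45. It ranked 234 of 251 by ratio. The remaining members had ratios of -0.10 to 0.05 and lay between the WT libraries.

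The shares of the minor members within the family do not depend on the library total. miR-30c-5p entered with 1 of its 2 lines, and adding the other would raise its share and lower those of the others. miR-30a-5p held 1.70% of the family's counts in WT A, 1.82% in WT B, then 2.29% in KO (interval 2.26% to 2.33%) and 1.61% in 3′F. miR-30e-5p held 3.06%, 3.03%, 2.58% and 2.18% in the same order. miR-30c-5p held 4.14%, 4.41%, 4.98% and 3.97%, again in this order. miR-30b-5p held 1.47% in KO and 1.57% in 3′F, above WT B (1.38%) and below WT A. On this scale 4 of 5 members were outside the WT shares by more than counting error in each mutant, all except miR-30b-5p. No matching share over all expressed miRNAs was formed. Counting error is a narrow measure here, since miR-30b-5p differed beyond it between the WT libraries. Its intervals were 1.77% to 1.84% in WT A and 1.35% to 1.42% in WT B. In KO, miR-30a-5p and miR-30c-5p were above and miR-30d-5p and miR-30e-5p below both WT libraries. In 3′F, miR-30d-5p was above and miR-30a-5p, miR-30c-5p and miR-30e-5p were below. Of these, only miR-30e-5p was also outside the WT range in RPM in 3′F. The shares of 1 library add up to a fixed sum, so they are not independent of each other.

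The relation of miR-30a-5p to miR-30e-5p, which differ by 1 base, was also taken directly. The level of miR-30a-5p was 55.4% of that of miR-30e-5p in WT A, 60.0% in WT B, then 88.9% in KO and 73.6% in 3′F. Both mutants were above both WT libraries. The summed level of this pair was 1603, 1761, 1649 and 1350.4 RPM in the same order, so that KO lay within and 3′F below the WT range. Both members had fractional counts, which can arise when reads are shared among listed miRNAs or among lines of the same miRNA. How reads of this pair were assigned is not given in the sources used here.

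**Figure D2:**
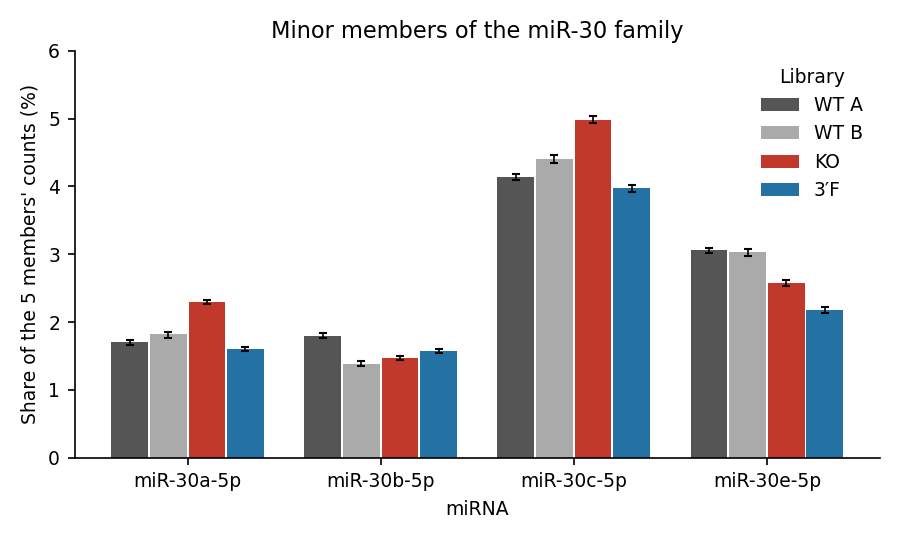
Share of the 5 members' summed counts held by each member other than miR-30d-5p, in percent, with 1 bar per library and 95% Wilson intervals as error bars. miR-30c-5p is counted by 1 of its 2 equal lines. In KO the shares of miR-30a-5p (2.29%) and miR-30c-5p (4.98%) are above both WT bars and those of miR-30e-5p (2.58%) below, and in 3′F those of miR-30a-5p (1.61%), miR-30c-5p (3.97%) and miR-30e-5p (2.18%) are below both.

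The 3p strands gave a second readout of the hairpins. miR-30a-3p was at 76.4 RPM in WT A, 104 RPM in WT B, 127 RPM in KO and 91.3 RPM in 3′F. KO was above both WT libraries, 1.66-fold WT A and 1.22-fold WT B, and 3′F lay between them. The log2 ratio in KO was 0.51, with 0.43 between the WT libraries.

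miR-30c-2-3p, from the neighboring hairpin, was low, with 110 counts in WT A, 74 in WT B, then 221 in KO and 128 in 3′F. These are 6.44 RPM (interval 5.35 to 7.76), 6.49 RPM (5.17 to 8.14), 11.6 RPM (10.1 to 13.2) and 7.9 RPM (6.65 to 9.4). It was under the expression minimum, and its counts were whole numbers in all 4 libraries. KO was above both WT libraries, 1.8-fold WT A and 1.78-fold WT B, with intervals that did not overlap. The 3′F value was also the higher, but its interval overlapped those of WT.

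miR-30c-1-3p, from the other mir-30c hairpin, was at 21.1, 16.6, 19.4 and 20.3 RPM in WT A, WT B, KO and 3′F, with both mutants inside the WT range. The level of miR-30c-2-3p was 30.6% of that of miR-30c-1-3p in WT A, 39.2% in WT B, then 59.7% in KO and 38.9% in 3′F.

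miR-30e-3p was at 889 RPM in WT A, 1389.8 RPM in WT B, 1053 RPM in KO and 983 RPM in 3′F. Both mutants lay between the WT libraries, unlike miR-30e-5p from the same hairpin, and the WT libraries differed by 0.64 on the log2 scale, more than for any other of the 11 strands. miR-30b-3p was at 189, 186, 162 and 176 RPM in the same order, below both WT libraries in both mutants, though not in 3′F with TMM or DESeq2 scaling, with log2 ratios of -0.21 in KO and -0.09 in 3′F. miR-30d-3p was at 111, 78.2, 87.1 and 85.3 RPM, inside the WT range in both.

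The strands were then ordered by cluster. The 3 products that by sequence belong to mir-30a or mir-30c-2 alone (miR-30a-5p, miR-30a-3p and miR-30c-2-3p) were all above both WT libraries in KO. Their median log2 ratio was 0.51, with a range of 0.34 to 0.75. The strands of mir-30a each differ by 1 base from those of mir-30e, and the assignment of reads between them is not known. Of all expressed miRNAs, which do not include miR-30c-2-3p, 37.8% were above both WT libraries in KO, and 31.5% to 43.4% under the other library scalings. Leaving out WT A gave a median of 0.29 and leaving out WT B a median of 0.72, so its size rests on which WT library it is set against. In 3′F the median was 0.04, or -0.18 and 0.25 with WT A or WT B left out, and 1 of 3 products was above both WT libraries, beside 22.7% of all expressed miRNAs.

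The 4 products of mir-30b and mir-30d had a median log2 ratio of -0.12 in KO, with 3 below both WT libraries, and of -0.03 in 3′F, with 1 below both. The KO median became -0.06 when WT A was left out and -0.25 when WT B was. The 3′F median turned in sign, to 0.06 when WT A was left out and to 0.04 with TMM, and was -0.11 when WT B was left out. The 3 products of mir-30c-1 and mir-30e had medians of -0.08 in KO and -0.18 in 3′F. Of these, 1 was below both WT libraries in each mutant, and this was miR-30e-5p. Below both WT libraries were 39.4% of all expressed miRNAs in KO and 44.2% in 3′F. The counts of 1 in 4 and 1 in 3 products are under these shares. The 3 in 4 of mir-30b and mir-30d in KO are over the share, but miR-30b-5p and miR-30d-5p were below by less than the counting intervals. Each of them lay between the WT libraries under some other library scaling. Leaving out WT A moved the medians of mir-30c-1 and mir-30e to -0.33 in KO and -0.50 in 3′F, and leaving out WT B to -0.12 and -0.05. Products of 1 hairpin share a precursor and are not replicates of each other, and the clusters were compared with no test.

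**Figure D3:**
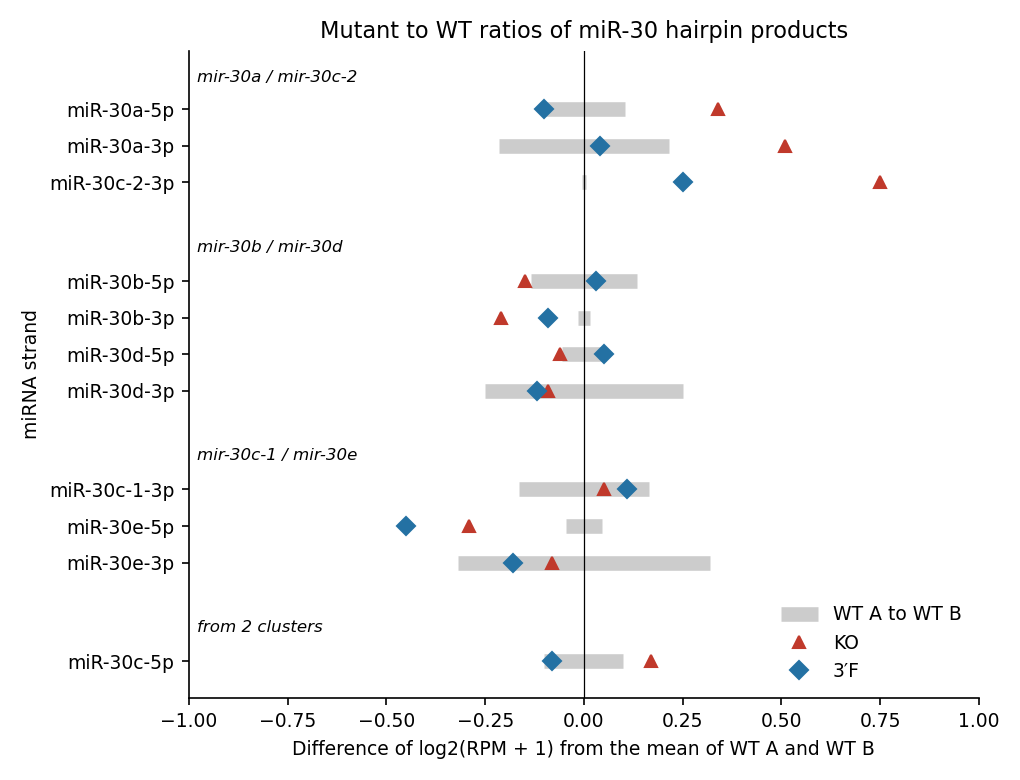
Difference of log2(RPM + 1) from the average of both WT libraries for the 11 miR-30 strands, ordered by genomic cluster, with triangles for KO, diamonds for 3′F and gray bars from the lower to the higher WT library. The 3 products of mir-30a and mir-30c-2 lie right of their gray bars in KO (0.34, 0.51 and 0.75), and miR-30e-5p lies left of its bar in both mutants (-0.29 and -0.45).

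The hairpins differed widely in the ratio of 5p to 3p reads. The strands of a hairpin differ in sequence, so ligation efficiency may shift these ratios, which hold for reads. The ratio of 5p to 3p counts of mir-30d was 272 in WT A, 416 in WT B, then 345 in KO and 379 in 3′F. For mir-30a it was 7.48, 6.37, 6.12 and 6.28 in the same order, and for mir-30b 3.20, 2.71, 3.07 and 3.20. In mir-30e the strands were nearly even, at 1.16, 0.792, 0.829 and 0.791, and 3p reads made up 46.3% of its counts in WT A and 54.7% to 55.8% in the other 3 libraries.

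The order mir-30d, mir-30a, mir-30b, mir-30e held in all 4 libraries. Across the WT cultures the mean ratios were 344 ± 102, 6.93 ± 0.782, 2.96 ± 0.353 and 0.976 ± 0.260 (SD, n = 2 cultures). The mutant ratios lay inside the WT range for mir-30d and mir-30b and, in KO, for mir-30e, and below it for mir-30a in both mutants, where the counting intervals (5.86 to 6.39 in KO and 5.94 to 6.63 in 3′F) reached the WT B value. The 3′F ratio of mir-30e differed from that of WT B by less than counting error. No ratio was formed for mir-30c-1 and mir-30c-2, whose 5p strand is 1 sequence.

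**Figure D4:**
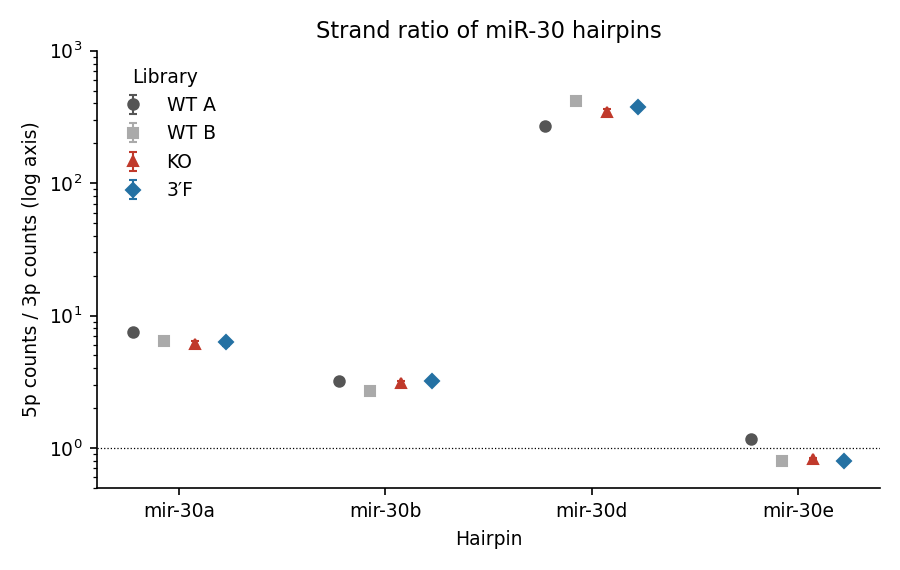
Ratio of 5p to 3p counts for 4 miR-30 hairpins on a log axis, with 1 point per library, 95% Wilson intervals as error bars and a dotted line at 1. mir-30d lies at 272 to 416, mir-30a at 6.12 to 7.48, mir-30b at 2.71 to 3.20 and mir-30e at 0.791 to 1.16.

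The miRNAs whose levels across the libraries were most like those of the family were sought among 126 miRNAs with a mean of at least 100 RPM, by the root mean square difference of centered log2(RPM + 1) values over the 4 libraries. Nearest to the summed family were miR-744-5p (0.020), miR-542-3p (0.027) and miR-24-3p (0.029). Nearest to miR-30a-5p were miR-223-5p (0.042), miR-26a-5p (0.052) and let-7a-1-3p (0.052). miR-223-5p, which comes from the hairpin of the myeloid miRNA miR-223, was at 552 RPM in WT A, 670.2 RPM in WT B, 813 RPM in KO and 584 RPM in 3′F, the order of libraries seen for miR-30a-5p. With 4 libraries that share 1 scaling, these distances are a description only.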

How the data were processed

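Small RNA was sequenced from 4 BMDM libraries, which were grouped by their labels. The authors deposited estimated counts and RPM values scaled to the sum of all 2129 lines of a library. Some counts are fractions, which can arise where reads are divided among listed miRNAs or among lines of the same miRNA. Adapters were trimmed with cutadapt 1.8.3 per the submitters' processing notes. The aligner, counter and genome build are not given in the sources used here. WT A and WT B were treated as separate cultures, and with 2 of them the spread may be partly technical.

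From these values, 1 line per mature miRNA was kept, and ratios were formed on log2(RPM + 1), which understates the change of low miRNAs. Shares of counts carry 95% Wilson intervals, and library totals of 11410940 to 19087640 counts put a floor of 3 counts at 0.157 to 0.263 RPM. No test was run on KO and 3′F, with 1 library each. The 2-fold threshold was first applied to RPM and then moved to RPM + 1, the scale of the ratios, after both counts had been seen (10 and 9 miRNAs in KO).

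The miRNAs named are the 5 members, the 3p strands of their hairpins, other miRNAs with the seed, miR-146a-5p, the 3 miRNAs nearest to the summed family and to miR-30a-5p, the neighbors of miR-30d-5p in rank, and cell type markers drawn from general knowledge. mmu-miR-146swap-5p was added after its values were seen. Members, lists and comparisons were chosen with earlier results of these data known. The functions were tested on simulated data, with changes larger than those of any miR-30 strand. That test covered the 2-fold call and not the counts outside the WT range. Other scalings (1 line per miRNA, edgeR TMM, DESeq2 size factors on rounded counts, and totals without miR-21a-5p), a pseudocount of 0.1, expression minimums of 1 and 100 RPM, a 1.5-fold threshold, every deposited line, and leaving out each WT library were tried. Python 3.11.15, numpy 2.4.6, pandas 2.3.3, matplotlib 3.10.9, R 4.3.3, edgeR 4.0.16 and DESeq2 1.42.0 were used.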

Additional observations from a re-analysis of the deposited data

How the results depend on the processing

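The log2 ratio of the summed family stayed between -0.11 and 0.01 in KO and between -0.03 and 0.10 in 3′F over all alternatives. The ratios of miR-30a-5p (0.23 to 0.44), miR-30c-2-3p (0.73 to 0.83) and miR-30e-5p (-0.35 to -0.24) in KO, and of miR-30e-5p in 3′F (-0.50 to -0.38), kept their sign. Under all 5 scalings, in KO miR-30a-5p, miR-30c-5p, miR-30a-3p and miR-30c-2-3p were above and miR-30e-5p and miR-30b-3p below both WT libraries, whereas miR-30d-5p lay between them with RPM over 1 line per miRNA and miR-30b-5p with TMM and DESeq2 factors. In 3′F, 1 member was outside the WT range, 2 with TMM, 2 with DESeq2 factors (each adding miR-30d-5p, above) and 4 without miR-21a-5p in the total (adding miR-30d-5p above and miR-30a-5p and miR-30c-5p below). miR-30b-3p was not below both WT libraries in 3′F with TMM or DESeq2 factors. The shares of expressed miRNAs above and below both WT libraries in 3′F, 22.7% and 44.2%, became 31.5% and 30.7% with TMM and 31.5% and 31.1% with DESeq2 factors. Leaving out each WT library in turn, which places every value above or below the remaining one by construction, gave 5 to 5 members outside in 3′F. The median ratio of the mir-30a and mir-30c-2 products then ranged from 0.29 to 0.72 in KO and from -0.18 to 0.25 in 3′F, that of mir-30b and mir-30d from -0.25 to -0.06 in KO and from -0.11 to 0.06 in 3′F, and that of mir-30c-1 and mir-30e from -0.33 to -0.12 in KO and from -0.50 to -0.05 in 3′F. The count of expressed miRNAs 2-fold from both WT libraries, 9 in KO and 2 in 3′F, ranged from 13 to 15 and from 2 to 5 without 1 WT library. In KO it was 14 without miR-21a-5p in the total, 17 at a minimum of 1 RPM, 3 at 100 RPM and 27 at 1.5-fold, and in 3′F it was 1 at 100 RPM and 6 at 1.5-fold. Applied to RPM without a pseudocount, an alternative chosen after seeing the data, the threshold gave 10 in KO and 2 in 3′F. Apart from the smaller reference and the changed minimum or threshold, the cause was not tested. No paired analysis was possible because fewer than 2 replicate letters recur across groups and no test was run. Depth limits miR-30c-2-3p, with 74 to 221 counts, more than the members, with at least 5727.33.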
